A study of Mus musculus with 17 samples.

Results

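The actin cytoskeleton and T cell motility genes described here are 39 of the 24537 genes in the deposited tables, chosen by name as a working list of the machinery with which T cells build actin filaments, contract and crawl. The choice was made with earlier results of these data known. All 39 were found by symbol in each of the 17 tables. Their RNA was measured in 6 groups of sorted mouse Th2 cells, the helper T cells that drive allergic inflammation, read by Smart-seq2, which suits small cell numbers. The study asked how Notch signaling bears on the exit of Th2 cells from the lymph node in allergic airway disease.

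The first 2 groups, labelled WT in their titles, came from Gata3-YFP mice, named GATIR in the labels. The yellow fluorescent reporter of these mice shows expression of Gata3, the master regulator of the Th2 fate. These 2 groups were the airway group, sorted from bronchoalveolar lavage (3 libraries), and the node reporter group, sorted from the mediastinal node draining the lung (3 libraries). OTII mice, which bear a transgenic T cell receptor for ovalbumin on CD4 T cells, gave the other groups. They were wild type node cells (3 libraries) and node cells labelled OTII_Notch1/2-KO (4 libraries), and the same 2 genotypes as Th2 cells from culture (2 libraries each). The mice that gave the airway and node cells had an airway inflammation driven by an allergen, and the headers of the node OTII tables read OVA-HDM. The culture groups began as naive spleen T cells that were grown for 7 days with stimulation by anti-CD3/CD28 coats, IL-4 and blockade of IFN-γ and IL-12/23. The age and sex of the mice, and the alleles and the Cre line behind the knockout label, are not given in the sources used here. The labels also do not say that the replicates of a group are separate animals or cultures, so the p-values measure only the spread between these libraries, which may be technical.

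A crawling T cell pushes its front forward by polymerising actin and retracts its rear by contraction. Monomers are held ready by thymosins and profilin, the Arp2/3 complex branches filaments when WASP switches it on, formins lengthen unbranched filaments, and cofilin and coronin recycle old ones. Small GTPases such as Rac, Cdc42 and Rhoa, loaded by DOCK and other exchange factors, choose between these modes, the kinases Rock1 and Rock2 and the myosins give contraction, ezrin and moesin tie the cortex to the membrane, and talin and kindlin-3 switch on integrins. Lymphocytes that lack Coro1a, Dock2, Dock8, Was, Rac2 or Stk4 function are known for poor migration, and loss of several of them causes immunodeficiency in humans.

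The promoter sequences of some of the members on which the results below turn are printed here, together with 2 for comparison that hold a searched motif. Each is the 250 bases before the start of a RefSeq gene model on GRCm38.p6, 5′ to 3′ on the strand of the gene. Of the 39 members, 34 had an entry. Actb, Rac2, Diaph1, Rac1 and Rock1 had none and were not searched for motifs. Cfl1 and Pfn1 fell together in the airway, Myo1f rose in knockout-labelled node cells, and Vim rose in culture. Actg1 is shown for its CArG box, the element bound by serum response factor, and Capg for the letters TGGGAA, the core bound by RBPJ, the DNA-binding partner of Notch. Capitals mark these motifs. The Capg window precedes another RefSeq start than that of the transcript in the deposited tables.
Cfl1, chr19:5490205-5490454, + strand: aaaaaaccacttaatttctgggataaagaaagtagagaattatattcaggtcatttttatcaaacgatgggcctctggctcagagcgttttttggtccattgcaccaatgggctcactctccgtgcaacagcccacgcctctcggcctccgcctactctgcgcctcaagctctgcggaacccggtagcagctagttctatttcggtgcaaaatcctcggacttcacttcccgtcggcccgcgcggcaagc
Pfn1, chr11:70654651-70654900, - strand: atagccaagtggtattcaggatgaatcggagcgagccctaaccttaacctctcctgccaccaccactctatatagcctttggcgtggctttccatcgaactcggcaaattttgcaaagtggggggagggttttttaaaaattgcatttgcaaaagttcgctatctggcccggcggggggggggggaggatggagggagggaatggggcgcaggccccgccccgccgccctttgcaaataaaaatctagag
Myo1f, chr17:33555457-33555706, + strand: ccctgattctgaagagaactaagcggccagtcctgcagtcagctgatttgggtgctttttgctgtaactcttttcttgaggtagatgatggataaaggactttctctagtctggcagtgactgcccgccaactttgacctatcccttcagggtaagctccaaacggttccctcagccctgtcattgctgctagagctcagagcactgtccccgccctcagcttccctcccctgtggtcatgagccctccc
Vim, chr2:13574061-13574310, + strand: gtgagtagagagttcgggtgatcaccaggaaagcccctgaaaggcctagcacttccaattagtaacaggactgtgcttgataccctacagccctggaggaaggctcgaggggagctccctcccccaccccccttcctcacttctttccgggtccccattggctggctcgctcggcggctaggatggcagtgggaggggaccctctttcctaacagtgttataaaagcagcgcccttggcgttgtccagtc
Actg1, chr11:120348496-120348745, - strand: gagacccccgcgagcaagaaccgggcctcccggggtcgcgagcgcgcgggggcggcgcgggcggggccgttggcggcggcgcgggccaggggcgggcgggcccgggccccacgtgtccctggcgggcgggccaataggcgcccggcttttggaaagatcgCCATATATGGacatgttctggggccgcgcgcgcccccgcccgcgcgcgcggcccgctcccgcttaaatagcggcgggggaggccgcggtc
Capg, chr6:72549397-72549646, + strand: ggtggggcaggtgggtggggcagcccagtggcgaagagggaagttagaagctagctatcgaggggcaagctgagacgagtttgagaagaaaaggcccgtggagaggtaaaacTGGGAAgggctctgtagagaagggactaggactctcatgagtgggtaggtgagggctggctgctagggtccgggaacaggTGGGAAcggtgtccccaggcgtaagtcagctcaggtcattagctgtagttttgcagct
On either strand of the same window, TGGGAA was found in 21.6% of 32851 RefSeq promoters and before 4 of the 34 members, namely Arpc5, Capg, Myo1g and Was. The CArG box was found in 1.47% of promoters and before 2 members, Actg1 and Arpc4. No member held both. No match was found in these windows before Myo1f, Vim, Pfn1 or Cfl1.

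Values are RPKM, reads divided by transcript length and by library size, after 1 scaling factor per library, and are called scaled RPKM. Each library held 16.3 to 27.5 M (megareads), so that even the lowest value of a member, Rock2 in node reporter replicate 1, rested on 104 reads, and Dock10 in airway replicate 2 on 89. Differences were tested with limma on log2(scaled RPKM + 1), over all genes that passed a filter on low values, and a gene passed at an adjusted p under 0.05. All 39 members passed the filter in each of the 6 comparisons. A fold change on this scale understates the change of genes with low values. In each of the 6 groups the median coefficient of variation between libraries was lower over the members than over all genes with a group mean of at least 10, without matching for level: the value in the airway was 12.96% over 36 members and 28.1% over all 5297 genes, and in wild type node cells it was 5.76% over 38 members and 6.79% over 6161 genes. Of the 4 node knockout libraries, replicate 2 lay farthest from the group mean over the members. Its root mean square deviation was 0.224 log2 units, against 0.159, 0.116 and 0.0777 in replicates 1, 3 and 4. It was the highest of the 4 in 14 members and the lowest in 18. Those counts alone do not single it out, as replicate 3 was highest in 13 and replicate 1 lowest in 17.

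The label check read the targeted genes first. Notch1 stood at 48.9, 48.5 and 46.2 in wild type node cells and at 10.1, 8.01, 12.6 and 12.9 in knockout-labelled ones, and at 26.3 and 29.4 against 4.23 and 1.06 in culture. Notch2 was not lower in the node libraries labelled knockout: it stood at 8.03, 8.08 and 7.53 in wild type and at 15, 14.1, 17 and 18.7 in knockout-labelled cells (log2 fold change 0.95, SE 0.11, limma adjusted p = 0.000595). In culture Notch2 read 7.65 and 7.37 in wild type and 7.16 and 6.64 in knockout-labelled cells. Which exons the knockout removes is not given in the sources used here. A level summed over the whole transcript thus checks the Notch2 label only in part, and the groups are called knockout-labelled throughout. Dtx1, a Notch target, fell from 52.8, 38.7 and 39.5 to 0.734, 0.755, 0.9 and 1.2 in the node. In culture Dtx1 was low in both genotypes, at 0.204 and 0.254 in wild type and 0.0974 and 0.0134 in knockout-labelled cells. None of 10 T cell markers was at 0 throughout any group.

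In every group the monomer-binding and monomer genes led the list and the kinase gene Rock2 closed it. Tmsb4x, thymosin beta-4, which sequesters actin monomers, was the highest member in all 6 groups, with means from 5636 ± 18.9 in cultured knockout-labelled cells to 12528 ± 568.2 in the airway (SD, n = 2 and 3). Actb, beta-actin, came next in all 6, from 2066 ± 301 in knockout-labelled node cells (SD, n = 4) to 6509.8 ± 179 in node reporter cells (SD, n = 3). Rock2 was the lowest member in all 6 groups, from 1.25 ± 0.646 in node reporter cells (SD, n = 3) to 9.41 ± 2.13 in cultured wild type cells (SD, n = 2). Together the members took 4.96% to 5.51% of the summed RPKM in the 11 OTII libraries, 6.37% to 6.56% in the airway and 7.84% to 8.46% in node reporter libraries. The airway and node reporter ranges of this share did not overlap. A few genes carried much of it. Tmsb4x alone took 1.32% to 1.83% in OTII, 2.97% to 3.22% in airway and 2.80% to 3.56% in node reporter libraries. Actb took 0.861% to 0.951% in airway and 1.70% to 1.80% in node reporter libraries.

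**Figure D1:**
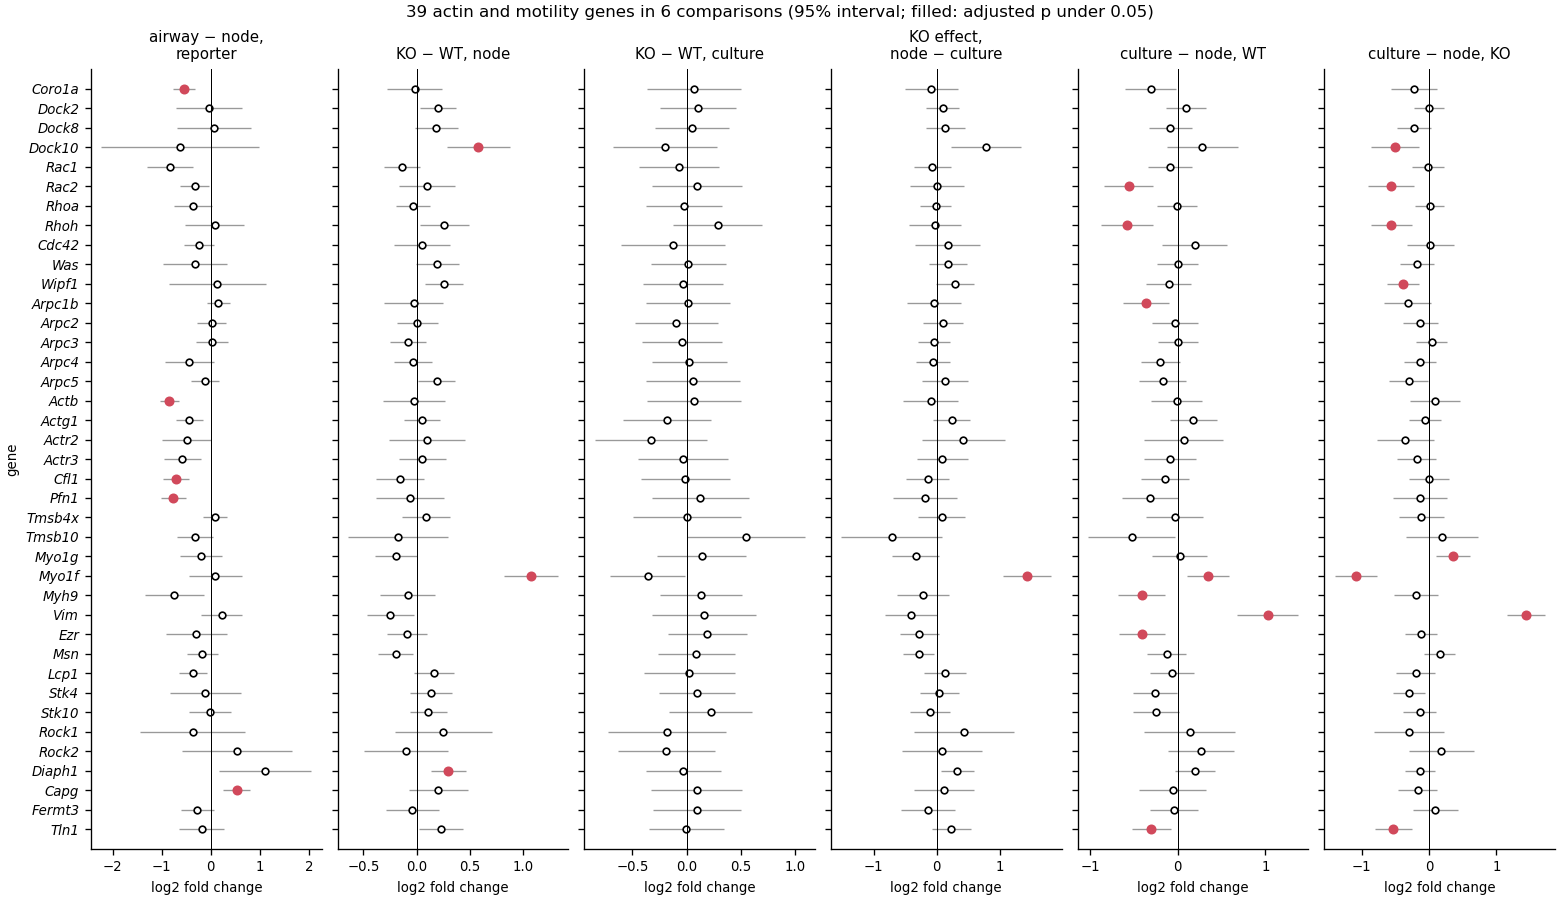
Log2 fold changes of the 39 members on the log2(scaled RPKM + 1) scale (x axis, a separate range in each panel) in the 6 comparisons, with 95% intervals as bars and members past the adjusted p threshold filled. In the airway panel 27 members lie below 0, with 4 filled points among them, and Myo1f is the member farthest to the right in the node knockout panel.

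In Th2 cells of the airway, 4 of the 39 members fell and 1 rose against node reporter cells, beside 2.3% of 10111 tested genes that fell and 2.97% that rose (5.27% in either direction). The 4 that fell were Actb, Pfn1, Cfl1 and Coro1a, that is beta-actin and 3 proteins that feed, cut or recycle its filaments. The median log2 fold change was -0.24 over the members and -0.07 over all genes tested. Groups did not overlap for 14 members that were lower and 3 that were higher in the airway, beside 13.8% and 13.1% of all genes.

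Actb (chr5:142903115-142906754 on mm10, the deposited transcript, as for the positions that follow) stood at 6716, 6419 and 6395 in the 3 node reporter libraries and at 3467, 3576 and 3804 in the 3 airway libraries. All airway values lay well below all node values, with means of 6509.8 ± 179 and 3616 ± 172 (SD, n = 3 each) (log2 fold change -0.85, SE 0.08, limma adjusted p = 0.00138). Pfn1 (chr11:70651847-70654650), profilin, which charges monomers with ATP and delivers them to growing ends, read 3233, 3111 and 3597 in the node and 1716, 2093 and 2038 in the airway. Its groups were also apart, and the node library with the most Pfn1 was replicate 3 (log2 fold change -0.77, SE 0.11, limma adjusted p = 0.00741). Cfl1 (chr19:5490455-5494031), cofilin, which severs old filaments, read 867, 900.0 and 907 in the node and 494, 541 and 603 in the airway (log2 fold change -0.71, SE 0.11, limma adjusted p = 0.00992). Coro1a (chr7:126699774-126704816), coronin-1A, which works with cofilin and is needed for naive T cell survival and egress, read 1401, 1286 and 1261 in the node and 949.7, 874 and 879.6 in the airway (log2 fold change -0.55, SE 0.10, limma adjusted p = 0.0176). The 3 node values of Cfl1 lay close together, and those of Coro1a were highest in replicate 1. Actb and Actg1 are near-identical in their coding sequence, so that reads could be split between them by the counting: the ratio of Actb to Actg1 was 14.2 to 15.8 in node reporter libraries and 10.9 to 11.9 in airway libraries. Both, like Pfn1, Cfl1 and Tmsb4x, also have processed pseudogenes with which reads can be shared, so that their levels are uncertain to that extent. Actg1 itself read 472, 410.2 and 404 in the node and 317, 299.7 and 329 in the airway, without overlap, and missed the threshold (log2 fold change -0.44, SE 0.12, limma adjusted p = 0.0815).

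Capg (chr6:72544391-72562983), a gelsolin-like protein that caps filament ends, was the member that rose. It read 615, 744 and 761 in the node and 1047, 1065 and 931 in the airway (log2 fold change 0.52, SE 0.12, limma adjusted p = 0.0418). Without any 1 of the 6 libraries Capg no longer passed, Coro1a and Cfl1 no longer passed without node replicate 1, 2 or 3, and Pfn1 no longer passed without node replicate 3, whereas Actb passed without each. The log2 fold changes of the 5 moved by at most 0.097 when 1 library was left out. Capg passed in 1 of 12 other settings, and with no filter on low values none of the 5 passed, Actb with an adjusted p of 0.0631 in limma. With RPKM as deposited, which moved the median of all genes from -0.07 to -0.20, 6 members fell and none rose, beside 5.31% of 10275 tested genes in either direction. Rac1 and Actg1 joined those that fell, and Capg did not pass.

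**Figure D2:**
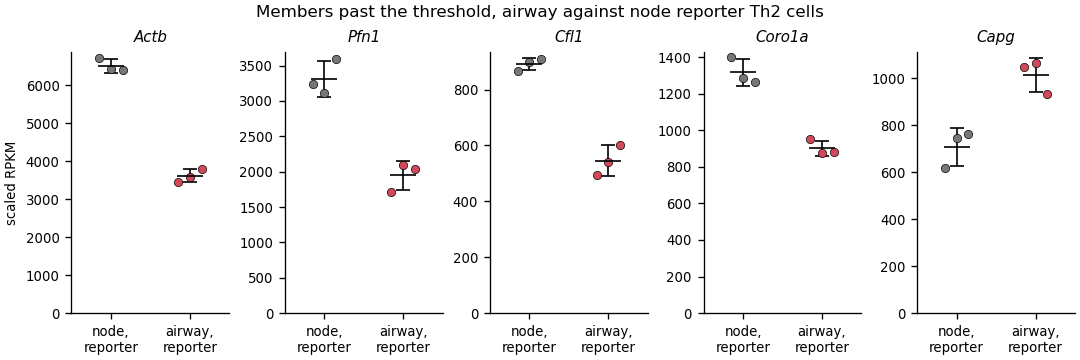
Scaled RPKM (y axis, from 0) of the 5 members that passed the threshold between airway and node reporter Th2 cells; points are libraries, horizontal bars the mean and whiskers the SD (n = 3). Actb, Pfn1, Cfl1 and Coro1a are lower and Capg is higher in all 3 airway libraries than in any node library.

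The remaining members of the airway comparison did not pass. Among the GTPases, Rac1, which drives lamellipodia in many cell types, came nearest at 185, 262 and 234 in the node and 117, 105 and 161 in the airway, without overlap (log2 fold change -0.83, SE 0.20, limma adjusted p = 0.0521). Rac2, the Rac protein of blood cells, read 545, 492 and 506 and 448, 350.4 and 434 (log2 fold change -0.33, SE 0.13, limma adjusted p = 0.207), and Rhoa, which turns on the Rock kinases and formins, read 116, 123 and 108 and 77.6, 103 and 88.2 (log2 fold change -0.37, SE 0.17, limma adjusted p = 0.27). All 3 were lower in every airway library than in any node library. Of the 7 genes of the Arp2/3 complex none passed. Actr3, one of its actin-like subunits, was the nearest, at 185, 161 and 163 and 96, 132 and 113 (log2 fold change -0.59, SE 0.17, limma adjusted p = 0.0862), while Arpc2 and Arpc3, 2 of its scaffold subunits, had log2 fold changes of 0.02 and 0.02 with 95% intervals of -0.28 to 0.31 and -0.30 to 0.34. Diaph1, the formin mDia1, lay the other way, at 4.32, 8.07 and 4.79 in the node and 15.8, 12.7 and 11.2 in the airway, without overlap but with a wide interval of 0.17 to 2.05 (limma adjusted p = 0.176). Tmsb4x, Dock2, Dock8, Wipf1, Rhoh, Stk10 and Myo1f had log2 fold changes between -0.03 and 0.13. The widest interval belonged to Dock10, which read 8.05, 0.635 and 8.43 in the airway. The 95% interval lay within 1 log2 unit on either side of 0 for 29 of the 39 members.

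Markers of macrophages moved with this comparison. The summed scaled RPKM of 14 macrophage markers was 3996 to 8589 in the airway and 492 to 748 in node reporter libraries, where 7 of the 14 (Mrc1, Ear2, Marco, Adgre1, Car4, Clec7a and Itgax) were at 0 in all 3. The node sum was led by Ctsd. Without Ctsd, a split made after the values were seen, the other 13 summed to 3222 to 7653 in the airway and 11 to 50 in node reporter libraries. Of the 11 macrophage markers tested, 10 rose. The sum of 10 T cell markers was 5434 to 6215 in the airway and 4734 to 5165 in the node, and that of 8 basophil markers was 279 to 463 against 615 to 964. Hdc led the basophil sum in both groups, whereas Fcer1a, Ms4a2 and Gata2 were at 0 in every library of both, and Cpa3 in every airway library. Smaller sums were seen for markers of eosinophils (24.6 to 39.2 against 8.78 to 17.3), epithelium (10.8 to 90.2 against 0.241 to 9.27), neutrophils (5.08 to 17.1 against 0 to 1.15), dendritic cells (9.12 to 16.2 against 2.19 to 4.07) and B cells (5.7 to 43.6 against 34.8 to 58.9). Ccr3 led the eosinophil sum in both groups, whereas Epx was at 0 in every library of both, and Prg2 and Ear1 in every node reporter library. Widely expressed genes, 3073 with a level of at least 20 throughout the OTII libraries, were missing from some airway libraries: 38, 49 and 2 of them were at 0 in airway replicates 1, 2 and 3, against no more than 1 per node reporter library. The part of other cells and of lost transcripts in the member changes was not tested. In such sorted populations, fewer cells of a type and less RNA per cell cannot be told apart.

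In node Th2 cells, 3 of the 39 members rose with the Notch1/2 knockout label and none fell, beside 10.4% of 10869 tested genes that rose and 7.68% that fell (18.1% in either direction). The 3 were Myo1f, Dock10 and Diaph1: a membrane-bound motor, an exchange factor and a formin. The median log2 fold change was 0.05 over the members and 0.02 over all genes. Groups did not overlap for 6 members that were higher and 4 that were lower, beside 17.2% and 14.1% of all genes.

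Myo1f (chr17:33555707-33607764), a class I myosin of blood cells that links membrane to actin, read 44.8, 49.8 and 43.8 in wild type and 109.7, 84.1, 110.4 and 91.9 in knockout-labelled node cells. The lowest knockout-labelled library lay far above the highest wild type one, with means of 46.1 ± 3.2 (SD, n = 3) and 99.1 ± 13.1 (SD, n = 4) (log2 fold change 1.08, SE 0.11, limma adjusted p = 0.00038). The other class I myosin on the list, Myo1g, which keeps up membrane tension in T cells, read 143, 160.1 and 147 and 138, 125, 143 and 119 and missed the threshold (log2 fold change -0.19, SE 0.09, limma adjusted p = 0.163). Its groups did not overlap, and the 2 class I myosins lay on opposite sides of 0. Myh9, the heavy chain of non-muscle myosin IIA that contracts the rear of the cell, had a log2 fold change of -0.08 with a 95% interval of -0.35 to 0.18.

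Dock10 (chr1:80501068-80665352), an exchange factor for Cdc42 and Rac in lymphocytes, read 29.4, 27.2 and 32.4 in wild type and 35.5, 52.5, 44.3 and 48.8 in knockout-labelled cells (log2 fold change 0.58, SE 0.13, limma adjusted p = 0.016). The spread was wide, with knockout replicate 1 near the highest wild type library. Diaph1 read 49.3, 45.8 and 44.3 and 56.3, 55.3, 60.1 and 58.2, a smaller shift in tight groups (log2 fold change 0.30, SE 0.07, limma adjusted p = 0.0218). Dock10 no longer passed without wild type replicate 1 or 2 or knockout replicate 4, and Diaph1 without wild type replicate 2 or 3 or knockout replicate 3 or 4. Without knockout replicate 2, the library farthest from its group mean over the members, 7 members passed, beside 25.2% of 10771 tested genes. Was, Wipf1 and Tln1 joined those that rose, and Msn fell.

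**Figure D3:**
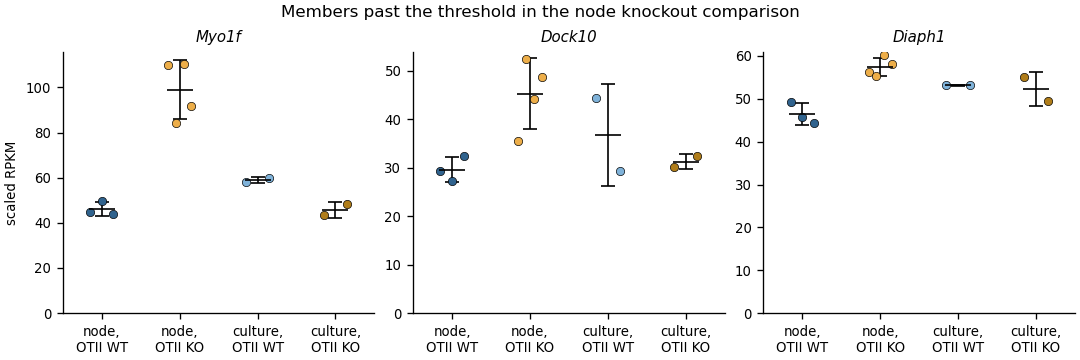
Scaled RPKM (y axis, from 0) of the 3 members that passed in the node knockout comparison, in the 4 OTII groups; points are libraries, horizontal bars the mean and whiskers the SD (n = 3, 4, 2 and 2 from left to right). Myo1f is higher in each node knockout-labelled library than in any other OTII library.

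Most other members had small log2 fold changes with the label in the node. For 35 of the 39 members the 95% interval lay within 0.5 log2 units on either side of 0, and for 38 within 1. Wipf1, the chaperone of WASP, was nearest to passing, at 90.7, 78.9 and 77.9 in wild type and 102, 96.8, 96.4 and 98.1 in knockout-labelled cells (log2 fold change 0.26, SE 0.08, limma adjusted p = 0.0535). Dock2, the exchange factor that activates Rac downstream of chemokine receptors, read 95, 96.3 and 102 and 105, 114, 111 and 120.2 (log2 fold change 0.20, SE 0.07, limma adjusted p = 0.0927). Both had no overlap between groups. Msn, moesin, the main linker of actin to the lymphocyte membrane, read 295, 285 and 284 and 238, 266, 243 and 259, lower in every knockout-labelled library (log2 fold change -0.20, SE 0.07, limma adjusted p = 0.102). Vim, vimentin, the intermediate filament protein, was also lower in every one, at 735, 866 and 760.0 and 682, 704, 677 and 588 (log2 fold change -0.25, SE 0.10, limma adjusted p = 0.116). Coro1a, Actb, Arpc2 and Arpc1b lay closest to 0, with log2 fold changes of -0.02, -0.03, 0.01 and -0.03.

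In the same comparison the summed macrophage markers were 305 to 447 in knockout-labelled and 142 to 167 in wild type node libraries, a sum led by Ctsd, a lysosomal protease that many cells make. Without Ctsd the other 13 summed to 2.98 to 4.67 in knockout-labelled and 5.88 to 6.99 in wild type libraries, a split made after the values were seen. Ear2 and Car4 were at 0 in all 7 node OTII libraries. The part of other cells in the member changes was not tested. The T cell marker sum was 3200 to 3983 against 3233 to 3597. The sum of 5 NK and CD8 markers was 3.97 to 5.06 against 6.76 to 9.68.

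In culture no member passed with the knockout label, and neither did any of the 10968 genes tested (0%), Notch1 included (log2 fold change -3.14, SE 0.38, limma adjusted p = 0.333). With 2 libraries against 2, limma gave an unadjusted p under 0.05 for 256 genes, among them 2 members, and limma-voom on reads read back from the tables called 2 genes and no member. The 2 members were Myo1f and Tmsb10. Myo1f read 58 and 59.9 in wild type and 43.3 and 48.3 in knockout-labelled cultures (-0.36 on the log2 scale, 95% interval -0.71 to -0.01, limma adjusted p = 1), so that it lay lower with the label, without overlap. Tmsb10, a second thymosin, read 484 and 760.4 and 907 and 866, with cultured wild type replicate 1 well below the others (95% interval 0.00 to 1.09). For 38 of the members the interval lay within 1 log2 unit on either side of 0, and for 18 within 0.5, so that larger shifts of the other members lie within their intervals.

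The effect of the label was then compared between node and culture in 1 model of the 11 OTII libraries, which shares the node and culture libraries with the comparisons above. It differed for 1 member, Myo1f, beside 3.84% of 11508 tested genes (2.35% with a more positive and 1.49% with a more negative effect in the node). The difference was 1.44 on the log2 scale (SE 0.17, 95% interval 1.05 to 1.82, limma adjusted p = 0.00124), and it passed under each of the 17 other settings tried. Dock10 had the next largest difference, 0.78 with an interval of 0.22 to 1.34, and did not pass (limma adjusted p = 0.126). Without cultured wild type replicate 2 Dock10 passed as well; the 2 cultured wild type values of Dock10 were 44.3 and 29.4.

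The culture cells were naive spleen T cells grown for 7 days with stimulation, and the node cells came from mice with allergen-driven inflammation. Origin, stimulation, sort and handling thus differ together between culture and node and cannot be told apart. In wild type cells 2 members rose and 6 fell in culture against node, beside 17.5% of 11108 tested genes that rose and 13.5% that fell (31% in either direction). In knockout-labelled cells likewise 2 rose and 6 fell, beside 15.3% of 11227 genes that rose and 13.7% that fell (29% in either direction). The median log2 fold change of the members was -0.06 in wild type and -0.14 in knockout-labelled cells, and that of all genes 0.03 and 0.02. Groups did not overlap for 18 members in wild type and 15 in knockout-labelled cells, beside 57.9% and 49.7% of all genes. Vim rose, and Rac2, Rhoh and Tln1 fell, in both genotypes.

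Vim (chr2:13574311-13582826) read 735, 866 and 760.0 in wild type node cells and 1403 and 1822 in wild type cultures (log2 fold change 1.03, SE 0.15, limma adjusted p = 0.002). In knockout-labelled cells it read 682, 704, 677 and 588 in the node and 1841 and 1733 in culture (log2 fold change 1.43, SE 0.12, limma adjusted p = 0.000104). The lowest culture library lay far above the highest node library, and Vim passed under every other setting tried, 12 in wild type and 13 in knockout-labelled cells. The difference between the genotypes did not pass (95% interval of the interaction -0.81 to 0.00, limma adjusted p = 0.269).

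Rac2 (chr15:78559169-78572783) read 571, 524 and 500.3 in wild type node cells and 332 and 388 in wild type cultures (log2 fold change -0.56, SE 0.12, limma adjusted p = 0.0109). In knockout-labelled cells it read 608, 464, 608 and 611 and 418 and 352 (log2 fold change -0.57, SE 0.15, limma adjusted p = 0.0243). No culture value reached the lowest node value, which was that of knockout replicate 2. Rac1, by contrast, had log2 fold changes of -0.09 and -0.02, neither of which passed, and the ratio of Rac2 to Rac1 was 3.29 to 3.79 in wild type and 3.08 to 4.67 in knockout-labelled node libraries and 2.13 to 3.04 in the 4 cultures. Rhoh (chr5:65863569-65896700), an atypical GTPase without enzymatic activity that tunes T cell receptor signaling, read 25.7, 20.9 and 22.5 and 14 and 16 in wild type node and culture (log2 fold change -0.58, SE 0.13, limma adjusted p = 0.0126). In knockout-labelled cells it read 28.4, 25.3, 26.2 and 31.4 and 20.8 and 16.4 (log2 fold change -0.56, SE 0.13, limma adjusted p = 0.0159). Tln1 (chr4:43531513-43562583), talin, which couples integrins to actin, read 139, 139.6 and 133 and 107 and 115 in wild type cells (log2 fold change -0.30, SE 0.09, limma adjusted p = 0.0467) and 167, 139, 176 and 164 and 111 and 111 in knockout-labelled ones (log2 fold change -0.53, SE 0.12, limma adjusted p = 0.0112). Its partner Fermt3, kindlin-3, had log2 fold changes of -0.04 and 0.09 and did not pass.

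**Figure D4:**
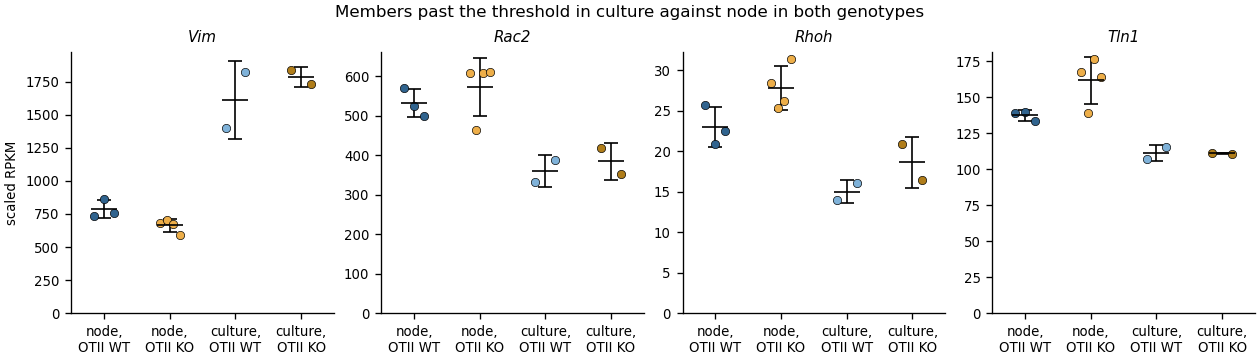
Scaled RPKM (y axis, from 0) of the 4 members that passed between culture and node in the same direction in both genotypes; points are libraries, horizontal bars the mean and whiskers the SD (n = 3, 4, 2 and 2 from left to right). Vim is higher, and Rac2, Rhoh and Tln1 are lower, in each culture library than in any node library of the same genotype.

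Myo1f passed in both genotypes in opposite directions. It rose in culture in wild type cells, from 44.8, 49.8 and 43.8 to 58 and 59.9 (log2 fold change 0.35, SE 0.10, limma adjusted p = 0.0371), and fell in knockout-labelled cells, from 109.7, 84.1, 110.4 and 91.9 to 43.3 and 48.3 (log2 fold change -1.09, SE 0.14, limma adjusted p = 0.00077). The rise in wild type cells was lost when any 1 of the 5 libraries was left out, whereas the fall in knockout-labelled cells passed under all 13 other settings.

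In wild type cells alone, Arpc1b, the regulatory Arp2/3 subunit of blood cells, fell from 384, 393 and 368 to 272 and 323 (log2 fold change -0.36, SE 0.11, limma adjusted p = 0.0448). Myh9 fell from 315, 309 and 276 to 208 and 243 (log2 fold change -0.41, SE 0.12, limma adjusted p = 0.0328). Ezr, ezrin, fell from 162, 170.2 and 149.6 to 112 and 129.7 (log2 fold change -0.41, SE 0.11, limma adjusted p = 0.0292). The log2 fold changes of these 3 in knockout-labelled cells were -0.32, -0.20 and -0.13 and did not pass, and the interaction did not pass for any of them (limma adjusted p = 0.919, 0.558 and 0.314). In knockout-labelled cells alone, Dock10 fell from 35.5, 52.5, 44.3 and 48.8 to 30.2 and 32.4 (log2 fold change -0.50, SE 0.16, limma adjusted p = 0.0419). Wipf1 fell from 102, 96.8, 96.4 and 98.1 to 81 and 69.1 (log2 fold change -0.39, SE 0.10, limma adjusted p = 0.0222). Myo1g rose from 138, 125, 143 and 119 to 163 and 172 (log2 fold change 0.36, SE 0.11, limma adjusted p = 0.0413). The interaction did not pass for these 3 either (limma adjusted p = 0.126, 0.296 and 0.319).

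Many of these calls were lost when 1 library was left out, where no direction changed and the log2 fold changes of the called members moved by at most 0.19 in wild type and 0.16 in knockout-labelled cells. In wild type cells Arpc1b, Myh9, Ezr and Tln1 no longer passed without node replicate 1, 2 or 3 or culture replicate 1, and Rhoh without node replicate 1 or culture replicate 1. In knockout-labelled cells Rac2 and Myo1g no longer passed without node replicate 1, 3 or 4 or either culture, Dock10 without node replicate 3 or 4 or either culture, Wipf1 without node replicate 3 or 4 or culture replicate 2, Tln1 without either culture and Rhoh without culture replicate 2. The T cell markers moved too: of 10, 6 fell in wild type and 7 in knockout-labelled cells, with sums of 2117 to 2290.3 and 2019 to 2511 in culture. Basophil markers, led by Cyp11a1, summed to 128 to 212 in the cultures and to 2.94 to 9.45 in OTII node libraries. Of these markers Fcer1a and Ms4a2 were at 0 in both wild type cultures, and none was at 0 in both knockout-labelled cultures. Whether cells other than Th2 cells gave this sum was not tested, nor was the part of the marker shifts in the member changes.

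Neither actin gene, Actb or Actg1, passed in either genotype. Actb had log2 fold changes of -0.01 in wild type (95% interval -0.30 to 0.28) and 0.09 in knockout-labelled cells (-0.29 to 0.46). Rhoa, Arpc3 and Rac1 lay between -0.09 and 0.04 in both genotypes. The interval lay within 0.5 log2 units on either side of 0 for 21 members in each genotype. Coro1a read 1076 and 1289 and 1278 and 1194 in the 2 kinds of culture, and its log2 fold changes of -0.31 and -0.22 did not pass (limma adjusted p = 0.0982 and 0.305).

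Over all 6 comparisons 17 members passed at least once and 22 never did. The share of all genes that passed at least once was not counted. For culture against node in wild type cells alone, 31% of 11108 tested genes passed. The count of members thus does not set them apart from other genes. The ranges of those 22 that are not given above follow, over the 11 OTII libraries and, where named, the 6 reporter libraries. Within the Arp2/3 complex, Arpc2 spanned 283 to 348, Arpc3 358 to 414, Arpc4 124 to 152 and Arpc5 137 to 210.4, and the actin-like subunits Actr2 and Actr3 spanned 95.7 to 170.1 and 150.0 to 218. The subunits thus stood at unequal levels per length, with Arpc3 and Arpc2 above Arpc4 and Actr2 in every OTII library. Was, the WASP protein that switches the complex on, spanned 96.6 to 128 in OTII and 26.7 to 57.7 in reporter libraries. Cdc42, the GTPase that frees WASP from its own inhibition, spanned 178 to 265 and 213 to 280.2.

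Among the regulators, Dock2 spanned 95 to 120.2 and Dock8, an exchange factor for Cdc42 needed for dendritic cell and T cell migration through tissue, 44 to 58.1 in OTII libraries, against 30.1 to 68.1 and 11.3 to 15.2 in reporter libraries. Stk4, the kinase MST1 that guides T cell egress and integrin use, spanned 61.1 to 91.3 and 13.3 to 24.4. Stk10, the kinase LOK that phosphorylates ezrin and moesin, spanned 51.5 to 79.1 and 61.2 to 80.6, so that its ranges overlapped between both kinds of mouse. Rock1, a kinase that drives myosin contraction, spanned 15.4 to 31.8 and 2.89 to 7.09, with node knockout replicate 2 as the highest OTII library. Lcp1, L-plastin, which bundles filaments in blood cells, spanned 580.1 to 756 and 457 to 683, and Fermt3 spanned 133 to 186 and 203 to 294.

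Reporter and OTII libraries differ in mouse strain and in read depth, and 2 members, Wipf1 and Actr3, were counted on another transcript in each kind, so node levels are set side by side with no test. Capg read 615, 744 and 761 in node reporter cells and 135, 183 and 143 in wild type OTII node cells. Myh9 read 27.1, 38.3 and 33.3 and 315, 309 and 276, and Tmsb10 114, 119.6 and 96.5 and 925, 991 and 729. Actb, Capg and Tmsb4x were higher in the reporter cells, and Tmsb10, Myh9 and Vim lower. The direction went with transcript length: of the 10 members over 5 kb, 9 had a lower mean in node reporter than in wild type OTII node libraries (median log2 ratio -1.89), as did 84.2% of all 765 genes of that length (median -1.15), whereas genes under 1 kb had a median of 0.34. Tmsb10 and Vim, at 560 and 1823 bases, lay far from the median of the genes of their length. Other members did so too, among them Myh9 and Diaph1 (log2 ratios -3.19 and -3.02) and, upward, Capg (2.20). The ratio of Tmsb4x to Tmsb10 was 91.4 to 121 in node reporter libraries and 5.78 to 8.28 in wild type OTII node libraries. The part of library preparation in these differences was not tested, and kind of mouse and preparation cannot be told apart.

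**Figure D5:**
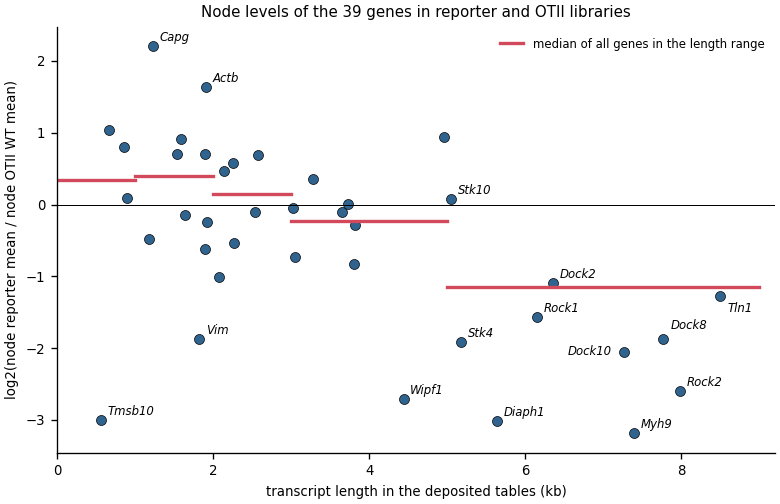
Log2 ratio of the mean scaled RPKM in node reporter libraries to that in wild type OTII node libraries (y axis, n = 3 each) against transcript length in kilobases (x axis) for the 39 members, with the median of all genes in each length range as a red line. Of the 10 members over 5 kb, 9 lie below 0, most of them also below the red line at -1.15.

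A wider list of 132 other actin and motility genes places the members among their neighbours. In the airway 5 of 114 tested rose and 2 fell, in the node with the knockout label 20 of 120 rose and 11 fell, and in culture with the label none of 122 passed (1 at an unadjusted p under 0.05 in limma). Over all genes tested the shares were 2.97% and 2.3% in the airway, 10.4% and 7.68% in the node and 0% in culture. In the airway Cyth4, a cytohesin that activates Arf GTPases, read 158, 136 and 150.2 against 72.1, 73.4 and 63.2 in the node (log2 fold change 1.08, SE 0.16, limma adjusted p = 0.00804). Selplg, the P-selectin ligand PSGL-1, read 691, 639 and 643 against 379, 444 and 395 (log2 fold change 0.70, SE 0.12, limma adjusted p = 0.0112). Ssh2, a phosphatase that activates cofilin, rose as well (log2 fold change 1.58, SE 0.31, limma adjusted p = 0.0229). Gsn, gelsolin, which severs and caps filaments, fell from 311, 399 and 356 to 140.0, 81.7 and 131 (log2 fold change -1.62, SE 0.22, limma adjusted p = 0.00539), and Rasgrp2, the exchange factor that activates Rap1 for integrin adhesion, fell from 30.5, 28.6 and 25.3 to 1.46, 5.72 and 7.22 (log2 fold change -2.50, SE 0.49, limma adjusted p = 0.0229).

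With the knockout label in the node, Rasgrp2 fell from 85.3, 92.4 and 83.4 in wild type to 14.1, 14.9, 17.1 and 11 (log2 fold change -2.54, SE 0.13, limma adjusted p = 9.84e-06). Cytip, which binds cytohesin, fell from 87.4, 92.5 and 97.9 to 42.3, 58.8, 42.7 and 46.1 (log2 fold change -0.96, SE 0.12, limma adjusted p = 0.00093), and Marcksl1, a membrane-bound actin regulator, fell as well (log2 fold change -1.33, SE 0.18, limma adjusted p = 0.00164). Cyth4 rose from 70, 75.2 and 69.4 to 162, 118, 152 and 148 (log2 fold change 0.9997, SE 0.11, limma adjusted p = 0.000524), Dock5 rose (log2 fold change 1.11, SE 0.10, limma adjusted p = 0.000242), and Lpxn, leupaxin, an adhesion adaptor, rose (log2 fold change 0.60, SE 0.07, limma adjusted p = 0.000983). The label's effect differed between node and culture for 7 of 123 wider-list genes, 3 more positive and 4 more negative in the node, beside 2.35% and 1.49% of all genes. Rasgrp2 read 58.3 and 88.6 in wild type and 85 and 103 in knockout-labelled cultures, so that the node shift was not seen there (difference -2.92, limma adjusted p = 0.00024).

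In culture against node, 19 of 122 wider-list genes rose and 24 fell in wild type cells, and 15 of 121 rose and 26 fell in knockout-labelled cells. Over all genes tested 17.5% rose and 13.5% fell in wild type and 15.3% rose and 13.7% fell in knockout-labelled cells. In wild type cells Lpxn rose from 65.3, 58.7 and 62.2 to 149.7 and 125 (log2 fold change 1.13, SE 0.11, limma adjusted p = 0.000375), and Elmo2, a DOCK partner, and Swap70, an actin-binding Rac regulator, rose with log2 fold changes of 0.92 and 1.07. Cotl1, a coactosin-like protein that binds filaments, fell from 768, 723 and 666 to 216 and 258 (log2 fold change -1.60, SE 0.12, limma adjusted p = 0.000116), and Cytip and Marcksl1 fell, with log2 fold changes of -1.15 and -2.68. In knockout-labelled cells Rasgrp2, Swap70 and Selplg rose, with log2 fold changes of 2.65, 1.44 and 1.29, and Cttn, cortactin, Vav2, an exchange factor for small GTPases, and Cyth4 fell, with log2 fold changes of -1.93, -1.59 and -1.13.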

How the data were processed

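The submitters' processing notes name HISAT2 2.0.4, HOMER, DESeq2 and the build mm10, without their roles. The authors deposited RPKM values, 1 table per library with 24537 genes and 1 RefSeq transcript per gene. Low values times length were whole reads (tolerance 0.1, checked below 100 reads, 100% whole), which gave each library's depth and the reads behind each value.

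For each library 1 median-of-ratios factor, from the 6796 genes with an RPKM of 1 or more throughout, scaled the values. The filter kept genes with a scaled RPKM of 1 or more in as many libraries as the smallest compared group has. Values as log2(scaled RPKM + 1) went into limma 3.58.1 under R 4.3.3, with a trended eBayes step after lmFit. The test was two-sided, used only the groups compared (all 11 OTII libraries for the interaction) and was adjusted by Benjamini-Hochberg over every tested gene, with 0.05 as the threshold. It was also run on simulated data in which every gene had the same spread, so that run does not give its error rate in these libraries. Alternatives were RPKM as deposited, a pseudocount of 0.1, no filter, limma-voom on the reads, a replicate block, a fit over more libraries and leaving out each library.

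The members and lists were chosen with earlier results of these data known. Members called in a comparison are given by library. Of the wider list, up to 3 called genes per direction with the smallest p and no overlap are named, except 1 that is not reported here, and Notch1, Notch2 and Dtx1 check the labels. Promoters are from RefSeq (GRCm38.p6).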

Additional observations from a re-analysis of the deposited data

Results flagged for a closer look

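Among the 4 knockout-labelled node libraries, 53 genes (the 39 members and the wider-list genes named) were examined for a library far from the other 3, which chance gives in about 1 of 20 groups. It was seen in 3, all members. Rac2 read 464 in replicate 2 and 608 to 611 in the others. Arpc1b read 295 in replicate 2 and 400.3 to 408 in the others. Lcp1, plastin-2, which bundles filaments, read 658 in replicate 1 and 744 to 756 in the others.

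The effect of the knockout label differed between node and culture, by the interaction test, for 1 member and 7 genes of the wider list, 6 of which are given here. The difference, node minus culture on the log2 scale, was 1.44 for Myo1f, 1.40 for Dock5, 0.997 for Cyth4 and 0.82 for Lpxn. It was -2.92 for Rasgrp2, -1.90 for Marcksl1 and -0.83 for Cytip.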

How the results depend on the processing

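No direction of a called member reversed. Counts of members past the threshold moved by more than 1.5 times as follows, and the cause was not tested unless given. In the airway comparison the count was 5, beside 5.27% of 10111 tested genes. It was 0 with no filter, beside 1.57% of 14268 tested genes, and 13 in a fit over all 17 libraries, beside 26.8% of 10111. Leaving out 1 library gave 1 to 5 in the airway comparison, beside 1.06% to 5.20% of tested genes. It gave 1 to 7 in the node knockout comparison (3 in all libraries), beside 9.15% to 25.2%. Leaving out a node library gave 1 for the difference between node and culture (1), beside 2.23% to 4.84%. For culture against node in wild type cells it gave 2 to 3 (8 in all libraries, beside 31% of 11108 tested genes). In knockout-labelled cells it gave 4 to 10 (8 in all libraries, beside 29% of 11227). Shares of all genes for the other fits of culture against node are not given in this section. Their counts thus do not set the members apart from other genes. Groups left with 1 library were taken to vary like the other group, and no counts are given for those fits. Node OTII headers carry 2 numbers whose meaning is not given in the sources used here. Averaging libraries that share the first, a setting added after the data were seen, gave 3 members for culture against node in wild type cells and 2, 1 and 10 in the node knockout, interaction and knockout-labelled culture comparisons. Over all tested genes 17.6% passed with this setting in the node knockout and 2.23% in the interaction comparison.

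Same-numbered libraries did not deviate together in every pair (correlations of deviations from -0.400 to 0.398 over the comparisons), so the numbers were not taken to pair libraries. Between wild type and knockout-labelled node libraries, deviations correlated at -0.042 to 0.594 where the second header number was shared (6 pairs) and at -0.521 to 0.305 where it was not (6 pairs). With that number as a term, added after the data were seen, 4 members passed in the node knockout comparison, beside 22.3% of 10869 tested genes. They were the 3 given and Wipf1, which also rose. With a replicate block 1 member passed in the node knockout comparison, 2 for culture against node in knockout-labelled cells, 4 in the airway, 6 for culture against node in wild type cells, 0 in the culture knockout comparison and 1 for the difference. Over all tested genes the block gave 5.85% in the node knockout, 3.99% in the airway and 0.593% in the culture knockout comparison, and 1.44% for the difference. Crossed pairing of the cultures, also added after the data were seen, called 8 genes and 0 members, where the numbers as given called 65 genes. Of the settings for single called members, 225 kept the call and 97 lost it. All members had reads in every library, so depth limits the precision of the low ones only.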
